A study of Mus musculus with 40 samples.

Results

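The genes described here are 9 members of the TNF death and survival pathway, chosen by name from 55414 genes in the count table: *Ripk1*, *Ripk3*, *Mlkl*, *Casp8*, *Cflar*, *Birc2*, *Birc3*, *Fadd* and *Tradd*. All 9 were among the 25210 genes with at least 10 counts over the 40 libraries. Their levels were followed in cultured mouse cardiac fibroblasts with and without TAK1 (gene *Map3k7*), mainly in cells given TNFα.

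When TNFα binds its receptor TNFR1, the adaptor TRADD and the kinase RIPK1 assemble with the ubiquitin ligases cIAP1 (*Birc2*) and cIAP2 (*Birc3*), and the ubiquitin chains that these ligases build recruit TAK1 and the IKK kinases, which switch on survival genes through NF-κB. If that checkpoint fails, RIPK1 can instead engage FADD and caspase-8 (*Casp8*) and cause apoptosis, which cFLIP (*Cflar*) restrains. Where caspase-8 is also inactive, RIPK3 phosphorylates MLKL, which permeabilizes the plasma membrane in necroptosis.

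All cells came from the hearts of adult mice of genotype C57BL/6J_TAK1fl/fl, in which loxP sites flank exon 2 of *Map3k7*, and were used at passage 1. They were transduced with an adenovirus that carries iCre, which deletes the floxed exon, or LacZ, the control virus, both under the broadly active CMV promoter. After serum starvation the cultures were kept for 24 h with TNFα at 10 ng/ml, IL-1β at 15 ng/ml, TGFβ at 10 ng/ml, bFGF at 20 ng/ml, or nothing added (CTRL), which gave 10 groups of 4 libraries. Both arms of each iCre against LacZ comparison carried the floxed allele and received an adenovirus. The cells had been expanded in medium that already contained bFGF. The study describes the replicates as male and biological.

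Polyadenylated RNA was sequenced, and each library held 25360947 to 66160732 counts. *Map3k7* averaged 153.2 ± 6.51 CPM (counts scaled to the library total; SD, n = 4) in LacZ CTRL and 127.5 ± 4.27 in iCre CTRL, and 238.6 ± 19.9 in LacZ TNFα and 144.2 ± 12.8 in iCre TNFα. A count over the whole gene includes the exons outside the deleted one, so it checks the deletion only in part. The 10 fibroblast markers led by *Col3a1*, *Col1a1* or *Vim* were abundant in every group, and their summed level had a median of 40770 CPM in LacZ CTRL (30434 to 47665), 26097 in iCre CTRL (20809 to 37001), 31631 in LacZ TNFα (25795 to 34599) and 17030 in iCre TNFα (15351 to 23387). Endothelial markers summed to a median of 25.2 CPM in LacZ CTRL and 12.7 in iCre CTRL, and 9.62 and 9.95 with TNFα. Cardiomyocyte markers, with *Actc1* and *Ryr2* under 1 CPM, went with TNFα from 36.3 to 3.44 CPM in LacZ and from 31.2 to 4.45 in iCre. The 8 macrophage and leukocyte markers summed to a median of 84.0 CPM (range 59.0 to 170.4) in LacZ TNFα and 85.4 CPM (43.9 to 125.7) in iCre TNFα, with *Ptprc* and *Itgam* under 1 CPM in iCre TNFα. The pericyte and smooth muscle markers summed to a median of 376.3 CPM in LacZ CTRL and 816.2 in iCre CTRL, and of 196.8 CPM (71.9 to 368.1) in LacZ TNFα and 876.4 CPM (301.8 to 1154) in iCre TNFα, mostly *Rgs5*. The part of these markers in the results below was not tested. Gene levels were also set relative to each gene's mean over the 40 libraries and compared with the GC content of the transcript. In the 12 iCre libraries with TNFα, IL-1β or TGFβ, these relative levels rose by 0.22 to 0.33 log2 units per 10 percentage points. In the other 28 libraries this slope lay between -0.24 and -0.014, so each iCre against LacZ difference under these 3 ligands was also computed after a GC correction. In such bulk samples, fewer cells of a type and less RNA per cell cannot be told apart.

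Among the 9 genes, *Birc2* and *Birc3* carried the largest differences between iCre and LacZ with TNFα, so the sequences just before their start sites are shown. They are neighbours on chromosome 9, 11634 bp apart with no coding gene between them, and both lie on the minus strand. The 250 bases before each start (RefSeq, GRCm38.p6) are printed 5′ to 3′, for *Birc3* from chr9:7873171-7873420 and for the first of the starts listed for *Birc2* from chr9:7837058-7837307. Capitals mark CG dinucleotides, a feature chosen for display after no motif match had been seen there.
Birc3: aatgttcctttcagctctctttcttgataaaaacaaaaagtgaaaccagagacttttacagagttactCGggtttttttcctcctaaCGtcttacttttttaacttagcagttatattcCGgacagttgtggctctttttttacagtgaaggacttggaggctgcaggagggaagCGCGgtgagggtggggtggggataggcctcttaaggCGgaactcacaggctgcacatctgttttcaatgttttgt
Birc2: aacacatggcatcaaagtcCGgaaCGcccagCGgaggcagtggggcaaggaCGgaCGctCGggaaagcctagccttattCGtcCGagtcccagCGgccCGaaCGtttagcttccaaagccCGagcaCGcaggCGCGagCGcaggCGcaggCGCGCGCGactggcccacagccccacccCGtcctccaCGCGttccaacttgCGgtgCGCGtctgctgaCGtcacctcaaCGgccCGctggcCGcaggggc
The *Birc2* stretch held 31 CG dinucleotides at 68.4% GC, and the *Birc3* stretch held 6 at 43.6% GC. Over 32851 promoters the median was 6 CG dinucleotides and 52.4% GC, so *Birc3* stood at the median count and this *Birc2* start at the 95th percentile, which was 31. The second start listed for *Birc2* had 19 CG dinucleotides at 61.2% GC in the 250 bases before it.

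Promoter windows from 250 bases before to 50 after the start were given for 8 of the 9 genes. They were searched on both strands for an NF-κB motif (in 5.56% of all 32851 promoters), an interferon-stimulated response element (3.44%) and an AP-1 motif (TGANTCA, 7.81%). A pair of degenerate NF-κB motifs, in 4.51% and 11.2% of promoters, was added after no match to the first was seen, and overlaps it in part. The only matches were to the response element, in *Cflar* from base 7 of the RefSeq transcript on the minus strand, and in *Ripk1* from 5 bases before its second listed start. By the GENCODE coordinates given below, the *Cflar* match lies just before the gene. Both matches are shown because no other searched member held one. The motif is in capitals, at chr1:58711487-58711516 and chr13:34002859-34002888, both genes lying on the plus strand.
Cflar: ccacgtctgcTTTCGGTTTCtgggcgtctc
Ripk1: aacgttcccgGAAATCGAAAagcgcggaac
A match describes the letters only. *Tradd* had no window. The *Casp8* window (chr1:58802252-58802551) lies inside the gene span given below, so the start of that span was not searched.

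*Cflar* and *Casp8* are likewise neighbours, on chromosome 1, 36489 bp apart. In GRCm38 (GENCODE M21 coordinates) *Birc2* lies at chr9:7818227-7837064, *Birc3* at chr9:7848699-7873186, *Cflar* at chr1:58711508-58758884 and *Casp8* at chr1:58795374-58847503. *Ripk1* lies at chr13:34002363-34037147, *Fadd* at chr7:144577318-144582463, *Ripk3* at chr14:55784995-55788865, *Mlkl* at chr8:111311797-111338177 and *Tradd* at chr8:105258286-105264609. *Birc2* and *Birc3* are related in sequence, yet of the windows of read length along the longest transcript, 0.433% in *Birc2* and 1.6% in *Birc3* also occurred in a transcript of another gene. That share was highest in *Cflar*, at 7.94%, and in *Ripk1*, at 6.45%, so by this measure alone their counts are the least certain. The antisense gene *Faddos* overlaps *Fadd* and averaged under 0.1 CPM in each group, while *Serpinb6a*, which overlaps *Ripk1* on the other strand, averaged 357.3 CPM in LacZ TNFα and 504.1 in iCre TNFα. The strand setting of the counting is not given in the sources used here, so reads of overlapping genes may not be fully separated.

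**Figure D1:**
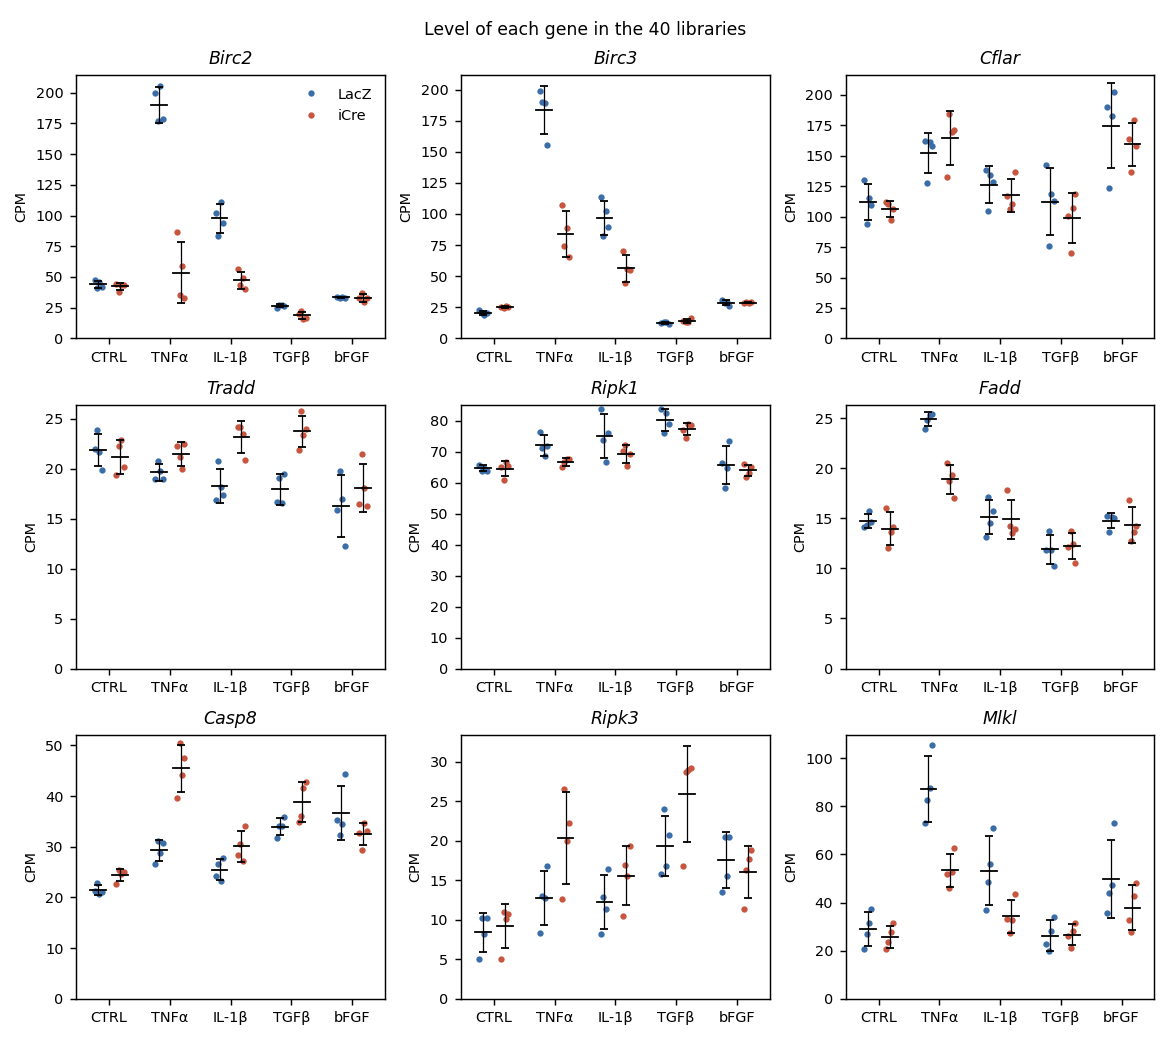
CPM of each gene in the 40 libraries, by ligand, in LacZ (blue) and iCre (red) fibroblasts. Points are libraries, horizontal bars group means and vertical bars SD over 4 libraries, and each vertical axis starts at 0. *Birc2* and *Birc3* were highest in LacZ fibroblasts with TNFα, at means of 189.9 and 183.4 CPM, and *Casp8* was highest in iCre fibroblasts with TNFα, at 45.5 CPM.

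In LacZ fibroblasts, where TAK1 is intact, TNFα raised both cIAP genes most, and it also raised *Mlkl*, *Fadd*, *Casp8* and *Cflar*. The comparison asks how the pathway's own genes respond to the ligand. By edgeR's quasi-likelihood test with Benjamini-Hochberg adjustment over all genes, 6 of 9 passed at an adjusted p of at most 0.05, all of them higher, against 21.3% of all genes in either direction, 10.9% higher and 10.4% lower. Their median log2 change was 0.60, and that of all genes was -0.083.

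*Birc3* stood at 22.9, 20.3, 18.5 and 20.4 CPM in LacZ CTRL and at 198.9, 190.2, 189.0 and 155.5 CPM in LacZ TNFα. The groups lay far apart, and the log2 change was 3.16 ± 0.11 (SE; adjusted p = 3.0e-07). *Birc2* stood at 47.2, 41.1, 46.1 and 41.6 CPM in LacZ CTRL and at 199.3, 177.0, 205.3 and 178.2 CPM in LacZ TNFα, a log2 change of 2.11 ± 0.09 (adjusted p = 8.6e-07). The 2 genes were thus nearly level with TNFα, whereas *Birc2* was the higher one without ligand.

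*Mlkl*, the effector of necroptosis, went from 20.6, 27.1, 31.3 and 37.3 CPM to 72.9, 82.7, 87.8 and 105.4 CPM, a log2 change of 1.59 ± 0.18 (adjusted p = 0.00027). *Casp8* stood at 20.7 to 22.9 CPM without ligand and 26.5 to 31.0 with it, and *Fadd*, the adaptor between RIPK1 and caspase-8, at 14.2 to 15.7 and 23.9 to 25.5, with no overlap in either. *Fadd* rose by 0.76 ± 0.07 (adjusted p = 0.00013), *Casp8* by 0.45 ± 0.08 (adjusted p = 0.0026) and *Cflar* by 0.44 ± 0.12 (adjusted p = 0.026), all on the log2 scale. The *Cflar* call depended on the libraries and the fit, and it was kept in 10 of 16 alternatives. Of 8 fits that left out a library each, 3 kept it (adjusted p 0.011 to 0.071). It was lost without LacZ CTRL replicate 3 or 4 or LacZ TNFα replicate 1, 3 or 4. After GC correction alone its adjusted p was 0.056, and with the replicate number as a block it was 7.1e-06. *Ripk3*, the kinase that activates MLKL, had a log2 value of 0.60 ± 0.25 (adjusted p = 0.13), *Ripk1* one of 0.16 ± 0.06 (adjusted p = 0.10) and *Tradd* one of -0.15 ± 0.08 (adjusted p = 0.21). Once the fit held the replicate number as a block, *Ripk3* (adjusted p = 5.0e-05) and *Ripk1* (adjusted p = 0.047) passed too, when 35.5% of all genes did, and *Ripk1* was lost when GC was corrected in the same fit (0.097, adjusted p = 0.23).

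In iCre fibroblasts, without TAK1, TNFα again raised *Birc3*, *Mlkl*, *Fadd*, *Casp8* and *Cflar*, and *Ripk3* rose as well, but *Birc2* did not pass the test. Here too 6 of 9 genes passed, all higher, against 27% of all genes in either direction, 14.7% higher and 12.3% lower. *Ripk3* stood at 5.07, 10.96, 10.1 and 10.7 CPM in iCre CTRL and at 12.6, 26.5, 20.0 and 22.2 in iCre TNFα, and *Casp8* at 22.7, 25.3, 24.7 and 25.1 and then 39.7, 50.6, 44.1 and 47.5. Every TNFα library was above every CTRL library for both. *Birc3* rose by 1.77 ± 0.14 on the log2 scale (adjusted p = 0.00012), *Ripk3* by 1.17 ± 0.28 (adjusted p = 0.011), *Mlkl* by 1.08 ± 0.14 (adjusted p = 0.00062) and *Casp8* by 0.93 ± 0.10 (adjusted p = 0.00024). *Cflar* rose by 0.66 ± 0.11 (adjusted p = 0.0018) and *Fadd* by 0.47 ± 0.12 (adjusted p = 0.014), although after GC correction alone the adjusted p of *Fadd* was 0.066. *Birc2* had a log2 value of 0.37 ± 0.27 (adjusted p = 0.35), *Ripk1* one of 0.08 ± 0.07 and *Tradd* one of 0.05 ± 0.09. The *Birc2* value rested on one library, and without iCre TNFα replicate 1 it was 0.034.

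**Figure D2:**
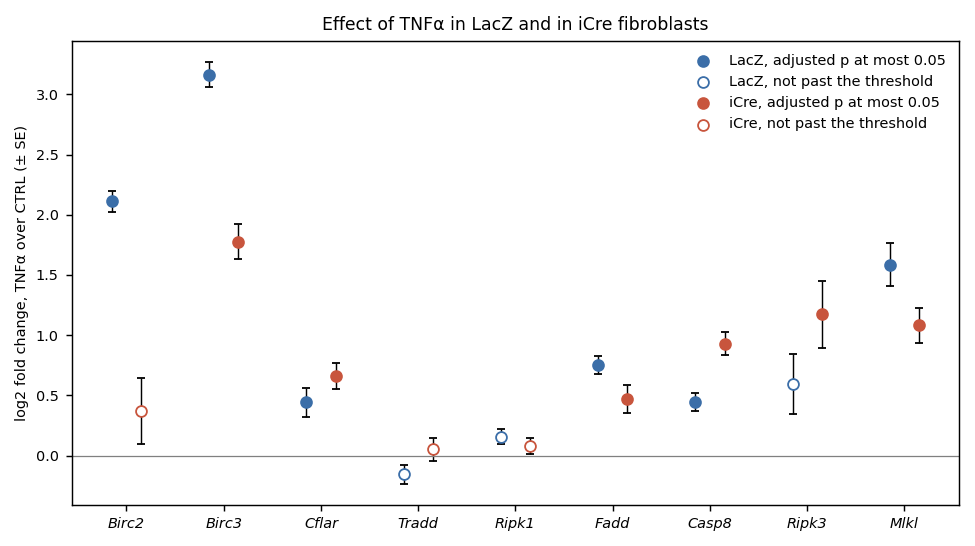
Log2 fold change of each gene with TNFα over CTRL in LacZ (blue) and iCre (red) fibroblasts, with SE bars from the edgeR fit. Filled points passed at an adjusted p of at most 0.05. *Birc2* and *Birc3* lay higher in LacZ fibroblasts (2.11 and 3.16) than in iCre fibroblasts (0.37 and 1.77), and *Casp8* lay lower (0.45 and 0.93).

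Whether the TNFα effect itself differed with TAK1 was tested as the product of virus and ligand over the 16 libraries. It was smaller in iCre fibroblasts for *Birc2*, by -1.75 ± 0.31 on the log2 scale (adjusted p = 0.0012), and for *Birc3*, by -1.40 ± 0.18 (adjusted p = 0.00010), and larger for *Casp8*, by 0.47 ± 0.11 (adjusted p = 0.0093). These 3 of 9 genes compare with 16.1% of all genes (8.38% higher, 7.7% lower), and each of the 3 calls held in all 24 alternatives. With the replicate block, under which 25.1% of all genes passed, 5 did, *Ripk3* (0.56, adjusted p = 0.0075) and *Mlkl* (-0.52, adjusted p = 0.0039) being added. With GC corrected in the blocked fit *Ripk3* no longer passed (0.38, adjusted p = 0.072), *Mlkl* did (-0.56, adjusted p = 0.0020), and *Fadd* was the other gene added (-0.41, adjusted p = 0.024). Without the block *Mlkl* had a difference of -0.51 ± 0.24, *Ripk3* of 0.57 ± 0.40, *Fadd* of -0.30 ± 0.13, *Cflar* of 0.21 ± 0.17, *Tradd* of 0.19 ± 0.11 and *Ripk1* of -0.09 ± 0.08. The *Fadd* difference passed after GC correction (adjusted p = 0.043).

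With TNFα present, iCre fibroblasts held less *Birc2*, *Birc3*, *Mlkl* and *Fadd* and more *Casp8* than LacZ fibroblasts. These were 4 genes lower and 1 higher of 9, against 27.3% of all genes in either direction (14.8% higher, 12.6% lower), and the 5 calls held in all 16 alternatives. Without ligand none of the 9 passed between iCre and LacZ (0.0754% of all genes, 19 in number, did, 0.0278% higher and 0.0476% lower), and 3538 genes had an unadjusted p under 0.05. For the 9, log2 values lay between -0.18 and 0.28. With the replicate block 14.5% of all genes passed in that comparison, and *Birc3* was the one member among them (0.29, adjusted p = 0.022); it also passed with DESeq2.

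The survival ligases differed most. *Birc2* stood at 86.6, 35.6, 58.6 and 32.9 CPM in iCre TNFα, all below the lowest LacZ TNFα library at 177.0 CPM, a log2 difference of -1.81 ± 0.28 (adjusted p = 0.0014). The iCre libraries spread widely (24.95 CPM SD against 14.5 in LacZ), with replicates 1 and 3 above the others, and without iCre TNFα replicate 1 the difference was -2.15. *Birc3* stood at 107.2, 74.1, 88.7 and 65.8 CPM, again below every LacZ TNFα library, a log2 difference of -1.11 ± 0.16 (adjusted p = 0.00083). Even so, *Birc3* in iCre TNFα was above every CTRL library of either virus, while *Birc2* overlapped CTRL. Under GC correction inside the blocked fit the differences were -1.64 for *Birc2* and -1.06 for *Birc3*, and both passed.

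*Cflar*, which restrains caspase-8, stood at 132.6 to 184.5 CPM in iCre TNFα and 127.8 to 162.1 in LacZ TNFα. The groups overlapped, and the log2 difference was 0.13 ± 0.12 (adjusted p = 0.47). The receptor-proximal genes differed little as well: *Tradd* by 0.15 ± 0.09 (adjusted p = 0.25) and *Ripk1* by -0.09 ± 0.07 (adjusted p = 0.38), and both values changed sign after GC correction. Before that correction the *Ripk1* libraries did not overlap, at 65.0 to 67.6 CPM in iCre TNFα and 68.5 to 76.4 in LacZ TNFα. How many of all genes lay apart in this way was not counted.

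On the death side *Casp8* and *Fadd* moved in opposite directions. *Casp8* stood at 39.7, 50.6, 44.1 and 47.5 CPM in iCre TNFα and at 26.5, 31.0, 28.7 and 30.8 in LacZ TNFα, a log2 difference of 0.66 ± 0.10 (adjusted p = 0.0010). *Fadd* stood at 20.5, 18.7, 19.3 and 17.1 CPM in iCre TNFα and at 23.9, 24.8, 25.3 and 25.5 in LacZ TNFα, a log2 difference of -0.38 ± 0.09 (adjusted p = 0.012). Neither pair of groups overlapped.

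Of the necroptosis pair, *Mlkl* was lower in iCre fibroblasts and *Ripk3* was not called. *Mlkl* stood at 52.0, 46.1, 52.8 and 62.7 CPM in iCre TNFα, below every LacZ TNFα library, a log2 difference of -0.69 ± 0.13 (adjusted p = 0.0031). *Ripk3* stood at 12.6, 26.5, 20.0 and 22.2 CPM in iCre TNFα and at 8.38, 12.9, 12.7 and 16.7 in LacZ TNFα, a log2 difference of 0.70 ± 0.25 (adjusted p = 0.062). Replicate 1 was the lowest for *Ripk3* in every one of the 10 groups. The *Ripk3* difference was 0.69 with the replicate block (adjusted p = 0.0026), when 32.2% of all genes passed. It was 0.51 with GC correction added to the block (adjusted p = 0.014) and 0.52 with GC correction alone (adjusted p = 0.18). *Ripk3* was called in 6 of 16 alternatives.

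**Figure D3:**
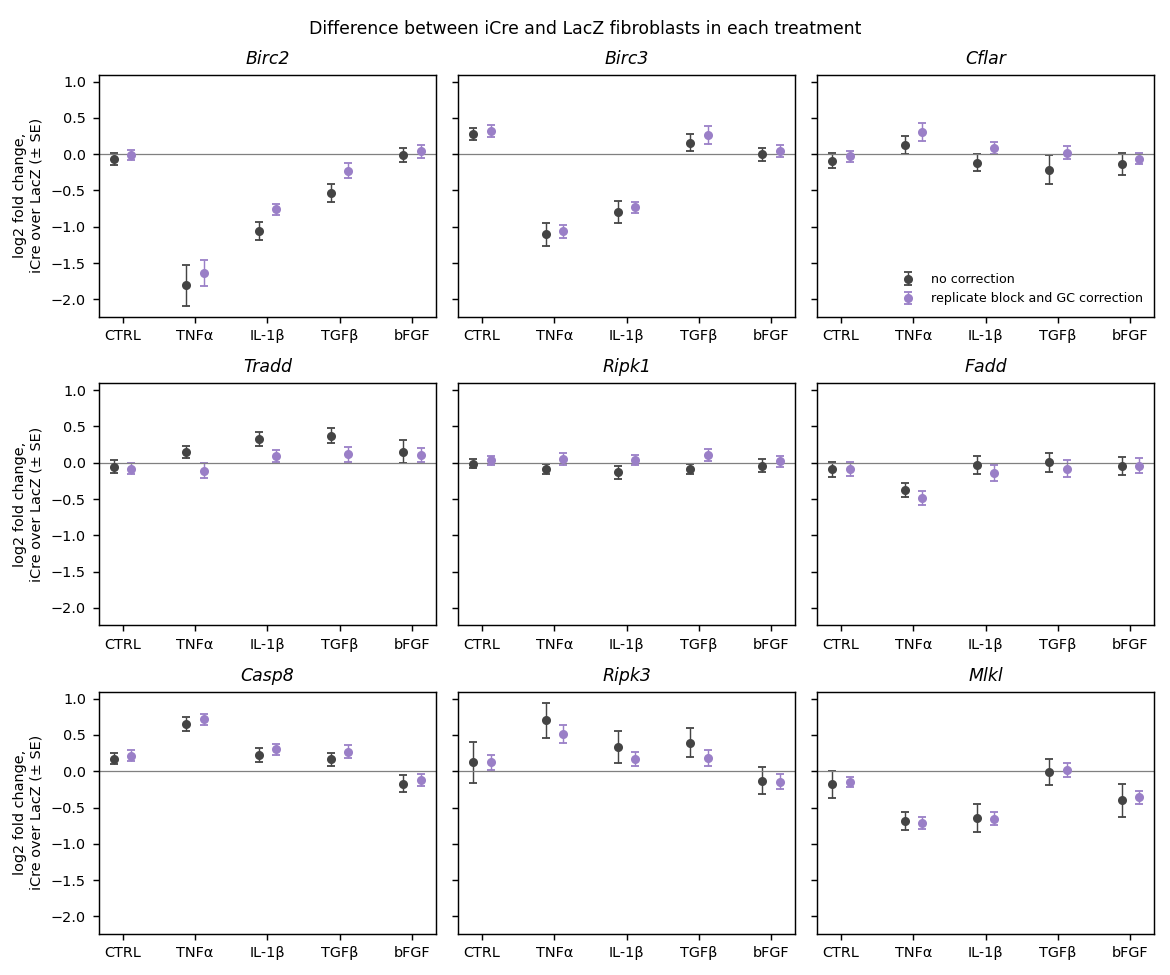
Log2 fold change of each gene in iCre over LacZ fibroblasts in each treatment, with SE bars, without correction (dark) and with both the block and the GC correction (violet). *Birc2* and *Birc3* lay lowest with TNFα (-1.81 and -1.11 without correction), and *Birc2* with TGFβ moved from -0.54 to -0.23 under the correction.

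IL-1β, which signals through a different receptor complex that also uses TAK1, raised 3 of the genes in LacZ fibroblasts (20.7% of all genes passed, 11.1% higher and 9.55% lower): *Birc3* by 2.25 ± 0.12, *Birc2* by 1.16 ± 0.10 and *Mlkl* by 0.88 ± 0.22 on the log2 scale. The other 6 had log2 values from -0.25 to 0.55, and 7 of 9 passed once the replicate number was a block (33.5% of all genes then did), with *Ripk3* (0.56), *Casp8* (0.25) and *Ripk1* (0.22) higher and *Tradd* (-0.25) lower. The *Mlkl* call was lost without replicate 3 (adjusted p = 0.088). In iCre fibroblasts *Birc3* (1.18 ± 0.13) and *Casp8* (0.32 ± 0.09, adjusted p = 0.046) passed, against 16.3% of all genes (9.38% higher, 6.88% lower), and the other 7 had values from 0.11 to 0.77. With the block (33.8% of all genes) *Ripk3* (0.79) and *Mlkl* (0.42) passed too, and leaving out any replicate ended the *Casp8* call (adjusted p 0.073 to 0.19). When GC was corrected in the blocked fit, *Birc2* (0.37), *Cflar* (0.26) and *Ripk1* (0.19) passed as well. Between iCre and LacZ with IL-1β, *Birc2* (-1.06 ± 0.13), *Birc3* (-0.80 ± 0.15) and *Mlkl* (-0.65 ± 0.19, adjusted p = 0.046) were lower and *Tradd* (0.33 ± 0.10, adjusted p = 0.047) was higher, against 16.1% of all genes (7.14% higher, 8.98% lower). *Mlkl* passed in 1 of the 4 fits that left out a replicate, the one without replicate 1, and *Tradd* in 1, without replicate 2, while *Birc3* was lost without replicate 3 (adjusted p = 0.059). After GC correction *Birc2* and *Birc3* remained, *Mlkl* stood at -0.67 (adjusted p = 0.061) and *Tradd* at 0.090. *Mlkl* passed with the block added to that correction. With the block (29.5% of all genes) *Ripk3* (0.34, adjusted p = 0.012) and *Casp8* (0.22, adjusted p = 0.046) passed as higher; after GC correction in the blocked fit *Casp8* passed (0.30, adjusted p = 0.0098) and *Ripk3* did not (0.17, adjusted p = 0.25). The IL-1β effect was smaller in iCre fibroblasts for *Birc3*, by -1.08 ± 0.18 (adjusted p = 0.0012), and for *Birc2*, by -0.99 ± 0.15 (adjusted p = 0.00072), against 7.71% of all genes (2.76% higher, 4.95% lower). Without replicate 3 the adjusted p for *Birc3* was 0.052, and with the block (16.9% of all genes) *Mlkl* (-0.46) and *Tradd* (0.38) passed as well. Correcting GC in the blocked fit kept *Mlkl* (-0.50, adjusted p = 0.014) and lost *Tradd* (0.18, adjusted p = 0.30).

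TGFβ moved the cIAP genes the other way. In LacZ fibroblasts *Birc2* fell by 0.72 and *Birc3* fell by 0.71 on the log2 scale, *Tradd* fell by 0.27 (adjusted p = 0.047), and *Ripk3* (1.21 ± 0.22), *Casp8* (0.68 ± 0.08) and *Ripk1* (0.33 ± 0.07) rose. These 6 of 9 compare with 36.9% of all genes (17.5% higher, 19.3% lower). The *Tradd* call was lost without any one replicate (adjusted p 0.072 to 0.23), and that of *Ripk1* without replicate 3 (0.053). In iCre fibroblasts *Birc2* fell by 1.17 and *Birc3* fell by 0.81, and *Ripk3* (1.51 ± 0.25), *Casp8* (0.69 ± 0.10) and *Ripk1* (0.28 ± 0.07) rose, against 37.4% of all genes (18.6% higher, 18.8% lower). The *Ripk1* call was lost without replicate 3 (adjusted p = 0.070) or 4 (0.058). Between iCre and LacZ with TGFβ, *Birc2* (-0.54 ± 0.12, adjusted p = 0.023) was lower and *Tradd* (0.37 ± 0.10, adjusted p = 0.047) was higher, against 8.37% of all genes (2.51% higher, 5.87% lower). Neither passed after GC correction, *Tradd* passed in none of the fits without a replicate, and *Birc2* passed in the one without replicate 2 alone. *Ripk3* passed as higher with the block (0.38, adjusted p = 0.017), when 20.8% of all genes passed, but not once GC was corrected in that fit (0.18, adjusted p = 0.45). None of the 9 passed the interaction test for TGFβ (4.51% of all genes did, 0.893% higher and 3.62% lower), with differences from -0.48 to 0.42, and *Tradd* passed with the block (0.42, adjusted p = 0.034, against 8.04% of all genes) but not when GC was corrected as well (0.20, adjusted p = 0.51).

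With bFGF, *Ripk3* (1.08 ± 0.23), *Casp8* (0.79 ± 0.11), *Cflar* (0.66 ± 0.16) and *Birc3* (0.51 ± 0.10) rose in LacZ fibroblasts and *Birc2* fell by 0.38, against 11.6% of all genes (7% higher, 4.64% lower). The count of 5 rested on single replicates, and it was 3 without replicate 1, 0 without replicate 3 and 1 without replicate 4. With the block (27.3% of all genes) *Mlkl* (0.78) and *Tradd* (-0.42) passed too. In iCre fibroblasts *Cflar* (0.59 ± 0.10) and *Casp8* (0.42 ± 0.09, adjusted p = 0.044) rose, against 2.42% of all genes (1.79% higher, 0.635% lower). That count was 0 without replicate 1, 3 or 4 and 4 without replicate 2, and with the block (16.7% of all genes) *Ripk3* (0.84), *Mlkl* (0.54) and *Birc2* (-0.35) passed as well. Between iCre and LacZ with bFGF none passed, nor did any of the 25210 genes (0%), although 2585 had an unadjusted p under 0.05, and *Mlkl* passed with the block (-0.39, adjusted p = 0.0066), when 13.9% of all genes did. None of the genes passed the bFGF interaction test (0% of all genes). The comparisons with CTRL share the same CTRL libraries across ligands.

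Divided by transcript length, levels could be set side by side between genes. In LacZ CTRL *Cflar* was the highest at 17.1 ± 2.28 RPKM (CPM per kilobase of transcript; SD, n = 4), followed by *Mlkl* (14.5 ± 3.52), *Birc2* (13.2 ± 0.93) and *Tradd* (12.95 ± 0.96), each within the spread of the next. *Ripk3* (4.29 ± 1.26) and *Fadd* (3.77 ± 0.18) were the lowest and also overlapped. In LacZ TNFα *Birc3* (63.0 ± 6.58 RPKM) and *Birc2* (57.0 ± 4.35) led, within their spread of each other. In iCre TNFα *Birc3* (28.9 ± 6.25), *Mlkl* (26.7 ± 3.45) and *Cflar* (25.02 ± 3.38) overlapped at the top, *Casp8* (17.6 ± 1.80) came next, and *Birc2* had 16.04 ± 7.49. The spread of *Birc2* overlapped those of every gene above it. It also reached *Tradd* (12.7 ± 0.70), *Ripk3* (10.4 ± 2.95) and *Ripk1* (10.3 ± 0.18) below it.

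As a description with no test, the length-scaled ratio of *Birc2* to *Birc3* was 1.88 ± 0.20 in LacZ CTRL and 1.47 ± 0.073 in iCre CTRL, and 0.91 ± 0.082 in LacZ TNFα and 0.53 ± 0.13 in iCre TNFα. The LacZ and iCre libraries did not overlap with or without TNFα. The ratio of *Mlkl* to *Ripk3* was 3.49 ± 0.62 in LacZ CTRL and 2.92 ± 0.81 in iCre CTRL, and 6.93 ± 1.10 in LacZ TNFα and 2.77 ± 0.96 in iCre TNFα. All ratios here use levels without GC correction, and the transcripts of *Mlkl* (48.6%) and *Ripk3* (54.2%) differ in GC content. The part of GC content in the ratios was not tested. The ratio of *Casp8* to *Cflar* was 0.50 ± 0.088 in LacZ TNFα and 0.71 ± 0.041 in iCre TNFα, 0.50 ± 0.088 and 0.59 ± 0.054 in the CTRL groups, and highest with TGFβ, at 0.81 ± 0.24 in LacZ and 1.02 ± 0.19 in iCre.

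Over the 10 group means the 36 pairs of members had Pearson r from -0.58 (*Cflar* and *Tradd*) to 0.92 (*Ripk3* and *Casp8*). *Birc2*, *Birc3*, *Mlkl* and *Fadd* had r of 0.81 to 0.91 with one another, and *Ripk3* and *Birc2* had -0.48. Groups share viruses and ligands, so these values describe the 10 means only. The genes whose group means were most like those of *Birc3* were *Adamts7* (r = 0.99), *Nfkbia* (0.99) and *Icam1* (0.97), the latter pair being known NF-κB targets. Those most like *Casp8* were *Rangap1* (0.98), *Ssrp1* (0.97) and *Hsph1* (0.97), and those most like *Birc2* were *Gm20186* (0.98), *Mcc* (0.98) and *Atrnl1* (0.98). Ranked by Spearman's rho instead, the most similar gene stayed among the first 3 for 1 of the 9 members.

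The wider pathway was read from lists of other genes. The counts in each list stand against the shares of all genes that passed: 10.9% higher with TNFα in LacZ, 14.7% higher with TNFα in iCre, and 14.8% higher and 12.6% lower in iCre against LacZ with TNFα. Of 9 NF-κB targets, 9 rose with TNFα in LacZ fibroblasts and 8 in iCre fibroblasts, and 8 were lower in iCre than in LacZ with TNFα (12.6% of all genes were), among them *Sod2* (-2.08), *Relb* (-1.07), *Cxcl1* (-2.45) and *Nfkbie* (-1.38). All 10 interferon-stimulated genes were lower in iCre with TNFα, among them *Gbp2* (-4.27), *Irf1* (-2.13) and *Ifit1* (-3.22). The median log2 difference was -1.38 for the NF-κB list and -2.25 for the interferon list, against 0 for all genes.

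Among TNF receptors and ligands 2 of 7 were lower and none higher, against 12.6% and 14.8% of all genes: the death receptor gene *Fas* (-1.88 ± 0.23) and the death ligand gene *Tnfsf10* (-4.20 ± 0.57). *Tnfrsf1a*, which encodes TNFR1, had a difference of 0.20 ± 0.11, and *Tnf* one of -0.52 ± 0.55, while *Fasl* had no counts in the CTRL and TNFα groups. Of 8 complex I adaptors and ubiquitin ligases, against the same background of 12.6% lower and 14.8% higher, 2 were lower, *Ube2d3* (-0.97) and *Rnf31* (-0.75), a subunit of the linear ubiquitin ligase, and 2 were higher, *Map3k14* (1.64), the kinase of the alternative NF-κB route, and *Traf5* (1.21). Of 5 deubiquitinases and their partners, *Tnfaip3* (-1.72) and *Cyld* (-1.06) were lower and none was higher.

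Of 10 kinases and partners of the survival checkpoint, 7 were lower and 1 higher (12.6% and 14.8% of all genes), with *Tbk1* (-0.88), *Map3k7* itself (-0.71), *Tab3* (-0.52) and *Ikbke* (-0.91) the smallest p. *Map3k7* is the gene whose exon iCre deletes, so its place among the 7 is not independent of the design. After GC correction 5 of the 10 were lower and none higher, when 22.2% of all genes passed in either direction. Of 13 genes of executioner and mitochondrial apoptosis, 4 were lower and 3 higher (12.6% and 14.8% of all genes). *Bid*, which caspase-8 cleaves, differed by -2.07 ± 0.24, and the median of the list was 0.062. *Apaf1* (-0.44) and *Bak1* (-0.32) were lower too. Among the higher genes, named after their values were seen, were *Cycs*, which encodes cytochrome c (0.73 ± 0.17), and *Bax* (0.42 ± 0.09). Of the survival BCL2 family and *Xiap*, *Xiap* (-0.90 ± 0.07) and *Bcl2* (-0.61) were lower and *Bcl2l1* (0.84 ± 0.13) was higher. Of 4 other necroptosis regulators, *Zbp1* (-2.06 ± 0.30), a sensor that binds RIPK3, was the one that passed.

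**Figure D4:**
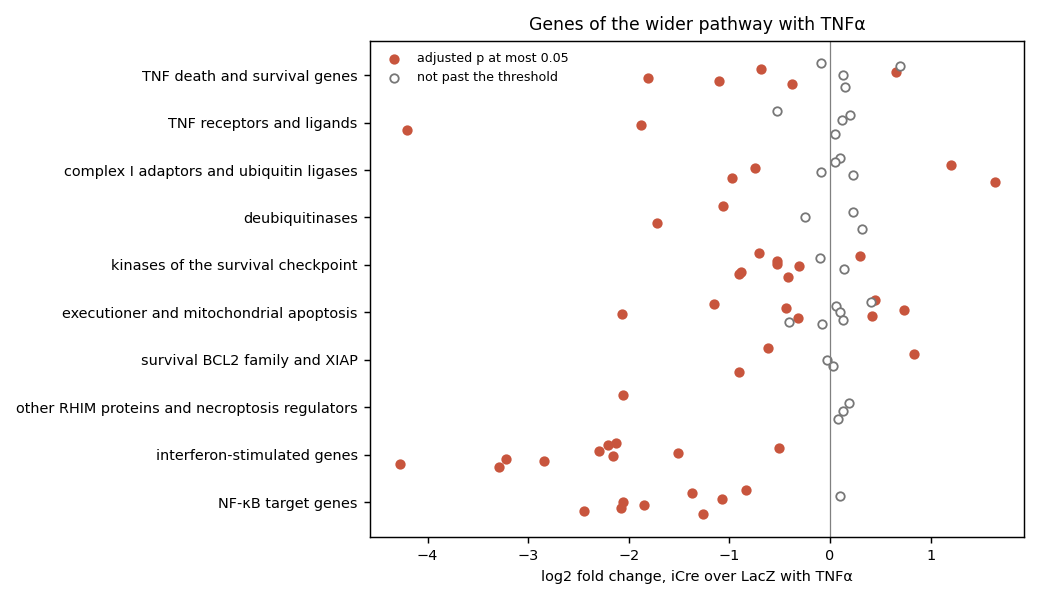
Log2 fold change in iCre over LacZ fibroblasts with TNFα for the 9 genes (top row) and for the genes of 9 further lists, one point a gene. Filled points passed at an adjusted p of at most 0.05, and *Fasl*, with no counts, is left out. All 10 interferon-stimulated genes and 8 of 9 NF-κB targets lay below 0 and passed.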

How the data were processed

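Single-end reads were aligned by the authors with STAR to mm10 (GRCm38) and counted per gene with HTSeq 0.10.0, after FastQC (0.10.1 per the labels). The deposited values are raw counts; the annotation release and the strand setting are not given in the sources used here. The labels name a NEBNext kit and the methods a stranded TruSeq kit. No column was left unmapped.

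Genes with at least 10 counts over the 40 libraries were tested with edgeR 4.0.16 (quasi-likelihood test, TMM) in R 4.3.3 on the 8 libraries compared, or 16 for interactions, with Benjamini-Hochberg adjustment over 25210 genes and calls at an adjusted p of at most 0.05. SE is the log2 fold change over the root of F. The scripts were tested on simulated data. CPM used TMM-scaled totals. RPKM used the longest GENCODE M21 transcript. The study's test, DESeq2 (here 1.42.0), was an alternative, beside RLE scaling, other count filters, a joint fit of 40 libraries, a replicate block, a GC correction (24970 genes), both together, and 92 leave-one-out fits. All 9 genes are named in the comparisons with TNFα, and elsewhere those that passed, with the range of the rest. Other lists are given by up to 4 of the smallest p in iCre against LacZ with TNFα, of which some are not reported here; *Fasl*, *Cycs* and *Bax* were named outside that rule. Members and lists were chosen with earlier results of these data known.

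The labels number replicates alike in each group but do not say that a number marks one animal. Same-numbered libraries deviated together (r 0.35 to 0.88 over 52 pairs of same-numbered libraries from groups set against each other, and 0.31 to 0.76 over 32 further pairs inside the interaction fits). Over all 180 pairs 1 fell to 0.027, between groups that were not compared. The numbers may therefore pair the libraries, a hint from the data; the main tests have no block, and blocked values stand beside results that change. P-values measure the spread between these libraries.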

Additional observations from a re-analysis of the deposited data

Results flagged for a closer look

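The effect of a ligand differed between iCre and LacZ fibroblasts by the interaction test for 5 values. With TNFα these were *Birc2* (-1.75 on the log2 scale), *Birc3* (-1.40) and *Casp8* (0.47), and with IL-1β they were *Birc3* (-1.08) and *Birc2* (-0.99).

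A single library stood apart from the other 3 of its group in 6 of the 90 gene and group combinations, by a gap that took more of the group's range than Dixon's critical value for 4 samples allows. Chance flags about 1 in 20 groups. *Ripk3* was low in replicate 1 of iCre CTRL (5.07 CPM) and of iCre TGFβ (16.7 CPM). *Cflar* was low in LacZ TNFα replicate 2 (127.8 CPM), *Birc2* in iCre CTRL replicate 2 (38.1 CPM) and *Fadd* in LacZ bFGF replicate 2 (13.7 CPM). *Fadd* was high in iCre IL-1β replicate 1 (17.8 CPM).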

How the results depend on the processing

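The calls for *Birc2*, *Birc3* and *Casp8* in the TNFα interaction, and those for *Birc2*, *Birc3*, *Mlkl*, *Casp8* and *Fadd* between iCre and LacZ with TNFα, kept their direction and their side of the threshold in every alternative run, with ranges for *Birc2* of -2.10 to -1.52 and -2.15 to -1.53. *Birc2* levels in iCre TNFα rested on replicate 1 in part. Relative to each gene's mean over the 40 libraries, the slope of gene level on GC content was positive in 12 libraries of iCre groups. It was negative in the other 28, so GC content and these groups cannot be fully told apart. The lowest count of any of the 9 genes in a library was 155. The alternative of levels without division by length changed the rank of 5 of the 9 genes in LacZ CTRL. The replicate block moved the share of all genes called from 21.3% to 35.5% for TNFα in LacZ, from 0.0754% to 14.5% for iCre against LacZ in CTRL and from 16.1% to 25.1% for the TNFα interaction, and to 33.5% and 33.8% for IL-1β in LacZ and iCre, 16.7% for bFGF in iCre, 13.9% for iCre against LacZ in bFGF, 16.9% for the IL-1β interaction and 8.04% for the TGFβ interaction.

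The number of genes called of 9 moved by over 1.5 times under some settings. With the replicate block it was 7 for LacZ with IL-1β, 4 for iCre with IL-1β, 5 for iCre with bFGF, 1 for iCre against LacZ in CTRL, 1 for iCre against LacZ in bFGF, 5 for TNFα interaction, 4 for IL-1β interaction, 1 for TGFβ interaction. With the replicate block and GC correction it was 7 for LacZ with IL-1β, 7 for iCre with IL-1β, 5 for iCre with bFGF, 1 for iCre against LacZ in CTRL, 0 for iCre against LacZ in TGFβ, 1 for iCre against LacZ in bFGF, 5 for TNFα interaction. With GC correction alone it was 1 for iCre with IL-1β, 2 for iCre against LacZ in IL-1β, 0 for iCre against LacZ in TGFβ. With DESeq2 it was 5 for LacZ with IL-1β, 4 for iCre with bFGF, 1 for iCre against LacZ in CTRL, 2 for TGFβ interaction. With edgeR's filterByExpr filter it was 6 for LacZ with IL-1β, 1 for TGFβ interaction. With RLE scaling it was 1 for iCre with IL-1β, 1 for iCre with bFGF, 1 for iCre against LacZ in TGFβ. With no filter on low counts it was 1 for iCre with IL-1β, 1 for iCre against LacZ in TGFβ. Leaving out each replicate gave 0 to 6 for LacZ with bFGF, 1 to 2 for iCre with IL-1β, 0 to 4 for iCre with bFGF, 1 to 3 for iCre against LacZ in IL-1β, 0 to 1 for iCre against LacZ in TGFβ, 1 to 2 for IL-1β interaction, 0 to 1 for TGFβ interaction. Filters that test fewer genes change the adjustment by construction; the cause of the other changes was not tested.

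The log2 values that changed sign were all of genes that had not passed. Under GC correction alone they were *Ripk1* -0.078 and *Fadd* -0.020 (LacZ with bFGF), *Tradd* -0.13 (iCre with TNFα), *Fadd* -0.058 and *Tradd* -0.080 (iCre with IL-1β), *Cflar* 0.064 and *Tradd* -0.037 (iCre with TGFβ), *Ripk1* 0.036 (iCre against LacZ in CTRL), *Ripk1* 0.050 and *Tradd* -0.10 (iCre against LacZ in TNFα), *Ripk1* 0.031 and *Cflar* 0.085 (iCre against LacZ in IL-1β), *Mlkl* 0.010 and *Ripk1* 0.10 and *Cflar* 0.0046 and *Fadd* -0.085 (iCre against LacZ in TGFβ), *Ripk1* 0.014 and *Birc3* 0.041 and *Birc2* 0.042 (iCre against LacZ in bFGF), *Ripk1* 0.014 and *Tradd* -0.017 (TNFα interaction), *Cflar* 0.12 and *Fadd* -0.067 (IL-1β interaction), *Ripk1* 0.062 and *Casp8* 0.062 and *Cflar* 0.044 and *Fadd* -0.0078 (TGFβ interaction). Under the replicate block and GC correction they were *Cflar* -0.011 (LacZ with TGFβ), *Ripk1* -0.081 and *Fadd* -0.021 (LacZ with bFGF), *Tradd* -0.13 (iCre with TNFα), *Fadd* -0.058 and *Tradd* -0.080 (iCre with IL-1β), *Cflar* 0.042 and *Tradd* -0.036 (iCre with TGFβ), *Ripk1* 0.036 (iCre against LacZ in CTRL), *Ripk1* 0.052 and *Tradd* -0.11 (iCre against LacZ in TNFα), *Ripk1* 0.035 and *Cflar* 0.088 (iCre against LacZ in IL-1β), *Mlkl* 0.023 and *Ripk1* 0.10 and *Cflar* 0.023 and *Fadd* -0.083 (iCre against LacZ in TGFβ), *Ripk1* 0.017 and *Birc3* 0.044 and *Birc2* 0.039 (iCre against LacZ in bFGF), *Ripk1* 0.016 and *Tradd* -0.019 (TNFα interaction), *Cflar* 0.12 and *Fadd* -0.069 (IL-1β interaction), *Ripk1* 0.065 and *Casp8* 0.062 and *Cflar* 0.038 and *Fadd* -0.0065 (TGFβ interaction). Under the replicate block they were *Cflar* -0.0061 (LacZ with TGFβ), *Mlkl* 0.0052 (iCre against LacZ in TGFβ), *Birc3* 0.00044 (iCre against LacZ in bFGF). Under a joint fit of all 40 libraries they were *Mlkl* 0.023 (iCre against LacZ in TGFβ), *Casp8* 0.0089 (TGFβ interaction). Under edgeR's filterByExpr filter they were *Fadd* -0.0041 (iCre against LacZ in TGFβ), *Birc3* 0.0021 (iCre against LacZ in bFGF), *Casp8* 0.0073 (TGFβ interaction). Under DESeq2 they were *Ripk1* 0.0021 (iCre against LacZ in CTRL). Under RLE scaling they were *Ripk1* 0.0019 (iCre against LacZ in CTRL). Leaving out replicates gave the ranges *Fadd* -0.042 to 0.11 (LacZ with IL-1β), *Cflar* -0.039 to 0.085 (LacZ with TGFβ), *Ripk1* -0.019 to 0.068 (LacZ with bFGF), *Fadd* -0.0098 to 0.044 (LacZ with bFGF), *Mlkl* -0.010 to 0.12 (iCre with TGFβ), *Cflar* -0.18 to 0.062 (iCre with TGFβ), *Ripk1* -0.035 to 0.030 (iCre with bFGF), *Ripk1* -0.021 to 0.013 (iCre against LacZ in CTRL), *Tradd* -0.092 to 0.0089 (iCre against LacZ in CTRL), *Fadd* -0.18 to 0.080 (iCre against LacZ in IL-1β), *Mlkl* -0.065 to 0.039 (iCre against LacZ in TGFβ), *Fadd* -0.014 to 0.0018 (iCre against LacZ in TGFβ), *Ripk1* -0.079 to 0.0099 (iCre against LacZ in bFGF), *Birc3* -0.062 to 0.052 (iCre against LacZ in bFGF), *Birc2* -0.083 to 0.053 (iCre against LacZ in bFGF), *Cflar* -0.10 to 0.016 (IL-1β interaction), *Casp8* -0.038 to 0.016 (TGFβ interaction), *Ripk1* -0.091 to 0.031 (bFGF interaction), *Cflar* -0.14 to 0.051 (bFGF interaction), *Birc2* -0.038 to 0.10 (bFGF interaction).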
